A study of Arabidopsis thaliana with 6 samples.

Results

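Signals of 9 Arabidopsis thaliana defence genes were set out array by array in rosette leaves of the pho3 line and of wild-type plants. Of these, 7 are referred to as salicylate-type (AT1G76960, AT5G03350, AT5G52760, AT1G65690, AT3G28510, AT1G26420 and SAG101) and 2 as jasmonate-type (PDF1.2 and THI2.1). Each was taken as the probe set that the platform annotation assigns to that gene alone, and all 9 genes had exactly 1 such probe set among the 13513 single-gene probe sets of the array, which stand for 13350 genes. The first 6 genes were chosen from their rise in pho3 in an earlier fit of these same arrays without wild-type replicate 1. SAG101, PDF1.2 and THI2.1 were chosen from pathway lists whose values were known. Differences of the 9 genes between pho3 and wild type are therefore given as a description, with no test.

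The plants of interest were pho3, a T-DNA insertion line of the Feldmann collection in the Ws-2 background (3 arrays), set against wild-type Ws-2 plants (3 arrays). All plants shared 3 days of stratification at 4 °C, 10 days on medium with 1% sucrose, then compost at 23 °C under a cycle of 16 h light and 8 h dark, and were sampled at growth stage 6.0. The line is known for a lesion in the SUC2 gene, whose product loads sucrose into the phloem, and the labels describe a single insertion line, with no second allele. The labels give no treatment with salicylate, jasmonate or a pathogen, so the words salicylate-type and jasmonate-type are background knowledge of the genes and not something measured here.

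Salicylic acid is the plant hormone of defence against pathogens that feed on living tissue. It accumulates when the EDS1 complexes or cell-surface receptors report an infection, and it acts through the coactivator NPR1 and TGA and WRKY transcription factors. Jasmonate serves defence against chewing insects and against fungi that kill tissue, and the plant defensin PDF1.2 and the thionin THI2.1, both small antimicrobial peptides, are its classic read-outs. The arms are known to restrain each other in leaves. Strong salicylate signalling commonly lowers PDF1.2.

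Signals are MAS5 values, linear and in arbitrary units, with the same trimmed mean on every array. A signal under the 40th percentile of its array (26.2 to 28.4 units on the 6 arrays) is called dim below, and dim values have no reliable order among themselves. The median signal was 40.4 to 44.2 on the 6 arrays. The labels do not say whether replicates were separate plants, so the spread between arrays may be technical. In whole leaves, fewer cells with a transcript and less transcript per cell cannot be told apart. The tissue label was checked on leaf genes: the summed signal of 6 leaf markers was 9991 to 14396 in pho3 and 12909 to 16607 in wild type, while the root marker PYK10 was dim on all 6 arrays. PYK10 was the only 1 of 7 listed root markers with a probe set of its own. The guard cell markers FMA and MUTE summed to 43.2 to 52.3 in pho3 and 50.6 to 66.3 in wild type. MUTE was dim on all 6 arrays, so that sum is nearly all FMA.

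The array labelled wild-type replicate 1 has to be named before any value, because it did not read like the other wild-type arrays. Over the 13983 probe sets that passed a filter on low signals, its typical log2 distance to another array, as a scaled median absolute deviation, was 0.31, 0.31 and 0.27 for pho3 replicates 1, 2 and 3. To wild-type replicate 2 that distance was 0.48, and to wild-type replicate 3 it was 0.47. Its signal lay between the lowest and highest pho3 array for 70.3% of these probe sets, and for 8 of the 9 genes described here. The array labelled pho3 replicate 3 was likewise farther from its own group, at 0.43 and 0.44 to the other pho3 arrays, than from wild-type replicate 2 (0.35) or wild-type replicate 3 (0.37). Groups below follow the labels, and differences of the 9 genes are given with and without wild-type replicate 1.

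The salicylate-type genes were above the 40th percentile on the pho3 arrays, apart from AT1G26420 on pho3 replicate 3, and on the array labelled wild-type replicate 1, and mostly dim on wild-type replicates 2 and 3. AT1G76960 encodes a small protein of unknown function. Its signals were 1016, 1433 and 647 on pho3 replicates 1, 2 and 3, against 848, 1.66 and 2.21 in wild type. Wild-type replicate 1 thus lay inside the pho3 range, and the other wild-type arrays were dim. The log2 difference was 6.07 over all arrays, with an SD of 0.57 among pho3 and 5.08 among wild-type arrays, and 9.0 without wild-type replicate 1. It was 4.5 without wild-type replicate 2, and 3.51 over all arrays with dim values raised to the 40th percentile. Without wild-type replicate 1 and with the dim wild-type arrays raised, the geometric mean of pho3 was at least 35.9-fold that of wild-type replicates 2 and 3.

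AT5G03350 encodes a legume lectin-like protein known to be induced by salicylic acid. It had signals of 1161, 1281 and 731 in pho3, against 1040, 39.0 and 8.38 in wild type. Wild-type replicate 2 was above its 40th percentile here, so only wild-type replicate 3 was dim. The log2 difference was 3.88 over all arrays, 5.83 without wild-type replicate 1 and 2.35 without wild-type replicate 3. With the dim array raised to its percentile, pho3 was at least 32.2-fold above wild-type replicates 2 and 3.

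AT5G52760 encodes a protein with a heavy metal-associated domain. Its signals were 332, 378 and 127 in pho3, against 183, 14.3 and 1.79 in wild type. Replicate 3 of pho3 was the lowest pho3 array and lay below wild-type replicate 1. The log2 difference was 3.91 over all arrays, 5.64 without wild-type replicate 1 and 2.3 without wild-type replicate 3. It was 2.29 over all arrays with dim values raised. With wild-type replicate 1 left out, the fold was at least 9.21 against the percentile.

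AT1G65690, also called NHL6, belongs to the family of NDR1, a membrane protein that several resistance proteins need. It read 245, 319 and 184 in pho3, against 216, 9.82 and 3.66 in wild type. The 3 pho3 arrays were closer together than for most of the other genes, with a log2 SD of 0.40. The log2 difference was 3.62 over all arrays, 5.34 without wild-type replicate 1 and 2.4 without wild-type replicate 3. It was 2.16 over all arrays with dim values raised, and without wild-type replicate 1 the fold was at least 8.91 against the percentile.

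AT3G28510 encodes an AAA-type ATPase of the BCS1-like family, and AT1G26420 a flavin-binding enzyme of the berberine bridge-like family. AT3G28510 had signals of 98.4, 182 and 56.7 in pho3, against 119, 0.792 and 2.68 in wild type. AT1G26420 had signals of 56.7, 53.2 and 26.3 in pho3, against 49.7, 2.02 and 0.616 in wild type. For AT1G26420, pho3 replicate 3 was itself just under its percentile. Their log2 differences, 3.99 and 3.44 over all arrays, rest on dim values. With all dim values raised to the 40th percentile they were 1.17 and 0.39. AT3G28510 differed by 2.5 without wild-type replicate 2, and AT1G26420 by 2.1 without wild-type replicate 3. Without wild-type replicate 1 the fold was at least 3.69 for AT3G28510 and, against the percentile, 1.57 for AT1G26420. The second is not a firm lower bound, as pho3 replicate 3 was dim too.

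SAG101, the lipase-like partner of EDS1 in immune signalling by intracellular receptors, also read lowest on wild-type replicates 2 and 3, here at signals above the percentile. It read 81.8, 82.8 and 45.3 in pho3, against 55.6, 33.1 and 38.8 in wild type, and no array was dim. Its highest array was 2.5-fold its lowest. No such fold is given for the other 6 salicylate-type genes, whose lowest array was dim. Its mean was 70.0 ± 21.3 for pho3, against 42.5 ± 11.7 for wild type (SD, n = 3 each). The log2 difference was 0.70 over all arrays and 0.91 without wild-type replicate 1.

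**Figure D1:**
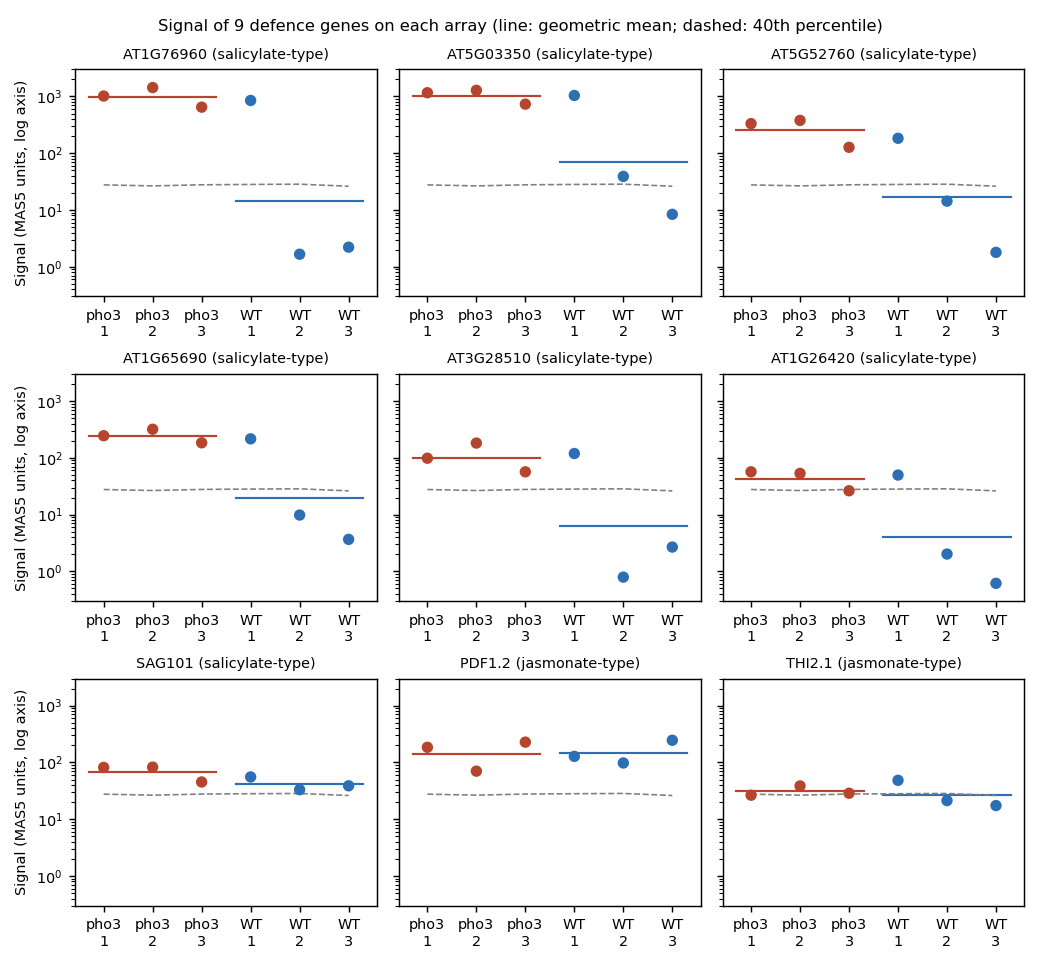
Signal of each of the 9 genes (vertical log axis, MAS5 units) on the 3 pho3 arrays (red) and the 3 wild-type arrays (blue). Horizontal lines are geometric means of the labelled groups and the dashed line is each array's 40th percentile. For the first 6 genes wild-type replicate 1 sits with pho3 and wild-type replicates 2 and 3 far below, whereas PDF1.2 is spread over both groups from 70.3 to 246.

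PDF1.2 did not follow that order. Its signals were 185, 70.3 and 228 in pho3, against 128, 97.9 and 246 in wild type. The lowest array was pho3 replicate 2, on which 6 of the 7 salicylate-type genes had their highest signal, and the highest array was wild-type replicate 3, on which 6 of the 7 salicylate-type genes were dim. PDF1.2 was nevertheless high on pho3 replicates 1 and 3 too, so its order was not simply the reverse. The mean of PDF1.2 was 161 ± 81.3 for pho3, against 157 ± 78.2 for wild type (SD, n = 3 each), a log2 difference of -0.02, or -0.11 without wild-type replicate 1. It turned to 0.50 without pho3 replicate 2 and to 0.36 without wild-type replicate 3. The all-array difference is much smaller than the spread within either group.

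THI2.1 was close to the limit of what these arrays resolve. It read 26.5, 38.6 and 28.7 in pho3, against 48.5, 21.3 and 17.4 in wild type. Replicate 1 of pho3 and replicates 2 and 3 of wild type were dim. The highest signal came from wild-type replicate 1, above all pho3 arrays. The log2 difference was 0.24 over all arrays, smaller than the wild-type SD of 0.78, and turned to -0.08 with dim values raised and to -0.06 without wild-type replicate 3. Against wild-type replicates 2 and 3 alone, pho3 was at least 1.13-fold higher.

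To set both types side by side on each array, each gene's log2 signal was taken relative to its own mean over the 6 arrays, since signals of different probe sets cannot be compared directly. The mean over the 7 salicylate-type genes was 2.01, 2.3 and 1.17 in pho3, against 1.74, -3.19 and -4.04 in wild type. The mean over PDF1.2 and THI2.1 was 0.13, -0.30 and 0.33 on the pho3 arrays, against 0.30, -0.49 and 0.03 on the wild-type arrays. The salicylate-type mean spanned a far wider range than the jasmonate-type mean, but the first 6 salicylate-type genes were chosen for their rise. The jasmonate-type mean is also flatter than either of its genes, which partly cancelled. PDF1.2 and THI2.1 stood at -1.04 and 0.44 on pho3 replicate 2, and at 0.77 and -0.71 on wild-type replicate 3. The jump of the salicylate-type mean lay between wild-type replicate 1 and wild-type replicates 2 and 3, not between the labelled groups.

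The contrast of salicylate-type minus jasmonate-type was 1.89, 2.6 and 0.84 in pho3, against 1.44, -2.70 and -4.07 in wild type. Replicate 1 of wild type lay within the pho3 range and replicates 2 and 3 lay below it. The mean contrast was 3.55 higher in pho3 than in wild type, and 5.16 higher without wild-type replicate 1. Much of its size came from dim values: with these raised to the 40th percentile it was 1.08, 1.83 and 0.08 in pho3, against 0.66, -1.45 and -2.19 in wild type, and the mean was 1.99 higher in pho3. The order of the 6 arrays was the same on both scales.

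**Figure D2:**
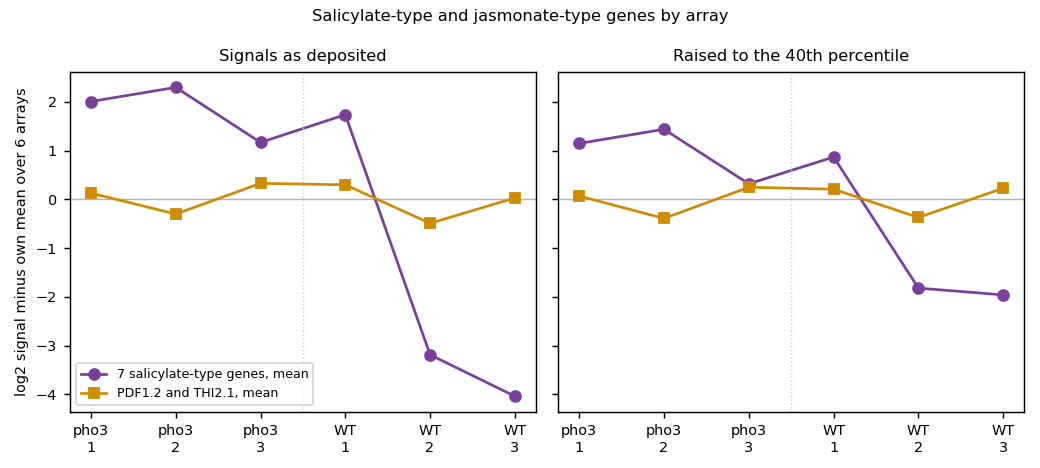
Mean log2 signal relative to each gene's own mean (vertical axis, log2 units) on each array, for the 7 salicylate-type genes (purple circles) and for PDF1.2 with THI2.1 (orange squares), pho3 left of the dotted line. The left panel uses signals as deposited and the right panel raises dim signals to the 40th percentile. In the left panel the salicylate-type mean falls to -3.19 and -4.04 on wild-type replicates 2 and 3 only. The jasmonate-type mean stays between -0.49 and 0.33, where PDF1.2 and THI2.1 partly cancel.

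Among the salicylate-type genes, the arrays kept a common order beyond that jump. Replicate 3 of pho3 was the lowest pho3 array for 7 of 7 genes, as for 44.9% of all 13983 probe sets. Wild-type replicate 1 was above pho3 replicate 3 for 7 of 7, as for 52.7% of all, and all 4 of these brighter arrays lay above wild-type replicates 2 and 3 for 7 of 7, as for 24.5% of all, while the reverse held for 0 of 7, as for 25.0% of all. The jasmonate-type THI2.1 also had these 4 arrays above wild-type replicates 2 and 3, and wild-type replicate 1 above pho3 replicate 3, partly on dim values. PDF1.2 had neither pattern. The genes were chosen on these arrays, so nothing is read from these counts. Replicate 2 of pho3 exceeded pho3 replicate 3 by 1.73-fold for AT1G65690, 1.75-fold for AT5G03350, 1.83-fold for SAG101, 2.02-fold for AT1G26420, 2.21-fold for AT1G76960, 2.98-fold for AT5G52760 and 3.22-fold for AT3G28510. For PDF1.2 that ratio was 0.309 and for THI2.1 it was 1.34.

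Among the controls for transcript ends, only actin moved with that order. The ratio of the 3-prime to the 5-prime actin control probe set, which is larger where RNA is degraded, was 4.75, 5.24 and 3.46 in pho3, against 4.23, 2.18 and 2.26 in wild type (exact permutation p = 0.2, two-sided, where 0.1 is the smallest that 3 against 3 arrays allow). The GAPDH ratio was 1.47, 1.37 and 1.16 in pho3, against 1.23, 1.27 and 1.34 in wild type. For ubiquitin it was 1.68, 1.75 and 1.72 in pho3, against 1.63, 1.78 and 1.8 in wild type. These ratios had log2 differences of 0.05 and -0.01 (exact permutation p = 0.6 and 0.8). The leaf markers ran the other way from the actin ratio. Their summed signals were 9991, 10761 and 14396 in pho3, against 12909, 16607 and 16101 in wild type. Of these markers, 6 of 6 had a lower mean in pho3 (limma, 0 called). The part of RNA quality or of leaf state in the results was not tested.

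No member passed the test across all probe sets, and neither did any other probe set. In limma's fit to all 6 arrays, 0% of 13983 probe sets were called in either direction at an adjusted p of 0.05, with 807 higher and 678 lower at an unadjusted p under 0.05. Without wild-type replicate 1, 4.61% were called higher and 0.837% lower. That array was singled out for its signals, which lay near pho3, and leaving it out widens such differences. Calls and p-values from that fit, here and below, are therefore a description and not independent evidence. The first 6 salicylate-type genes were among those called higher, which is how they were chosen, and SAG101, PDF1.2 and THI2.1 were not called. The groups overlapped for 9 of 9 members, as for 88.9% of all probe sets, the rest being 5.31% with pho3 wholly higher and 5.81% with pho3 wholly lower.

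Other genes of both pathways were taken from lists written from textbook knowledge, but with earlier results of these data known. Of 74 listed salicylate genes other than the 7 above, 6 had a probe set of their own in the annotation used here, and 4 passed the filter. That annotation leaves out 8730 of the 22746 gene probe sets, so the array may hold probe sets for further listed genes. PR1, PR2, PR5, EDS1, PAD4, ICS1, NPR1 and WRKY70 were not analysed here. None of the 4 was called over all 6 arrays (0% of all probe sets, limma; 1 at an unadjusted p under 0.05), and the pho3 mean was the higher for 4 of 4. Their median log2 difference was 1.2, beside 0 for all probe sets tested. Without wild-type replicate 1, 2 of the 4 were called higher, beside 4.61% of all.

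GRX480, a glutaredoxin that binds TGA factors and is known to lower PDF1.2 when overproduced, was one of those 2. It read 191, 230 and 126 in pho3, against 160, 62.5 and 24.6 in wild type. Wild-type replicate 1 sat among the pho3 arrays, and the other wild-type arrays were below all of them. Its log2 difference was 1.5 (SE 0.64, limma adjusted p = 0.375) over all arrays and 2.17 without wild-type replicate 1 (limma adjusted p = 0.0404). WRKY53, a transcription factor of senescence and defence, was the other. It read 90.4, 89.1 and 58.9 in pho3, against 77.0, 31.9 and 30.2 in wild type, and rose 2.52-fold without wild-type replicate 1 (limma adjusted p = 0.0313).

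The other tested salicylate list genes, UGT76B1 and AT5G52810, were not called in either fit. UGT76B1, which puts sugars on salicylic acid, read 56.0, 91.2 and 32.5 in pho3, against 35.0, 16.1 and 4.14 in wild type. Its log2 difference was 2.05 (SE 0.78, limma adjusted p = 0.375). Wild-type replicates 2 and 3 were dim for it, and without wild-type replicate 1 its fold was at least 2.01. AT5G52810, listed as SARD4, a reductase of pipecolic acid synthesis, read 147, 174 and 148 in pho3, against 149, 159 and 96.1 in wild type. Its log2 difference of 0.25 was within the spread. UGT74F1, a salicylate glucosyltransferase gene, was dim on all 6 arrays and was not tested, nor was BSMT1, a salicylate methyltransferase gene.

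Few other jasmonate genes could be found with the same annotation. Of 61 listed, 9 had a probe set of their own in it and 5 passed the filter. None was called over all arrays (0% of all, limma; 0 at an unadjusted p under 0.05) or without wild-type replicate 1 (limma, beside 5.44% called in either direction), and the pho3 mean was the higher for 4 of 5, at a median log2 difference of 0.51. For 4 of 5 all pho3 arrays and wild-type replicate 1 lay above wild-type replicates 2 and 3, beside 24.5% of all probe sets. VSP1, VSP2, LOX2, AOS, MYC2 and JAZ10 were not analysed here.

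JRG21, also called JOX3, an oxidase that inactivates jasmonic acid, had the largest difference of them. It read 71.4, 148 and 51.0 in pho3, against 108, 23.2 and 6.84 in wild type, with a log2 difference of 1.66 (SE 0.95). Wild-type replicates 2 and 3 were dim for it, and without wild-type replicate 1 its fold was at least 2.98. OPCL1, a ligase of jasmonate synthesis, read 480, 521 and 295 in pho3, against 395, 212 and 238 in wild type, with a log2 difference of 0.63 (SE 0.31). In both, wild-type replicates 2 and 3 were the lowest arrays, as for SAG101 and GRX480. The oxidase AT5G05600, also called JOX2, differed by 0.51 and the transcription factor MYC3 by 0.35. MYC4, the paralogue of MYC3 and named after its values were seen because it was the exception, read 86.4, 116 and 112 in pho3, against 87.6, 193 and 115 in wild type. None of these 5 passed limma's test (lowest adjusted p = 0.375 over all arrays, and 0.0537 without wild-type replicate 1).

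**Figure D3:**
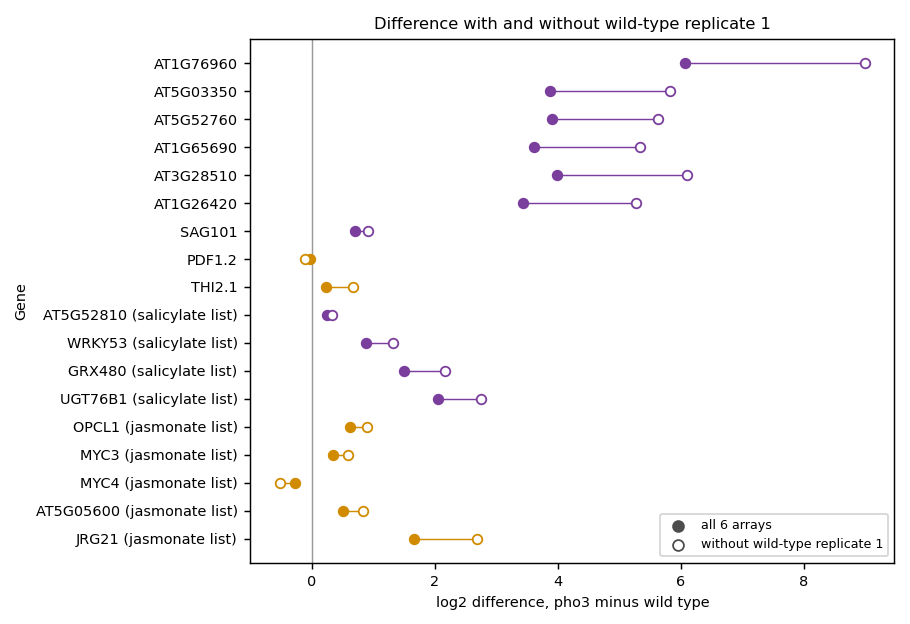
The log2 difference of pho3 minus wild type (horizontal axis) for the 9 genes and for the tested genes of the salicylate list (purple) and the jasmonate list (orange), with all 6 arrays (filled) and without wild-type replicate 1 (open). Leaving out that array moves AT1G76960 to 9.0 from 6.07 with all arrays, and PDF1.2 to -0.11 from -0.02.

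Relatives of the members gave a second view of the same leaves. The heavy metal-domain genes next to AT5G52760 in the RefSeq gene order read like it. AT5G52750 had signals of 344, 335 and 190 in pho3, against 233, 64.6 and 44.5 in wild type. AT5G52740 had 118, 128 and 40.9 in pho3, against 57.3, 17.2 and 12.4 in wild type. Both shared the high wild-type replicate 1 and the low pho3 replicate 3 of AT5G52760. Their log2 differences were 1.68 (SE 0.60) and 1.88 (SE 0.67), with limma's adjusted p = 0.375 for both over all arrays. These were the 2 tested genes of the 5 listed. Without wild-type replicate 1 both rose, 5.22-fold and at least 3.12-fold (limma adjusted p = 0.0149 and 0.0410), beside 4.61% of all probe sets called higher. AT5G52720 and AT5G52770 were dim on all arrays. Such tandem copies can share probe matches, and cross-hybridisation between them was not tested.

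The BCS1-like ATPases split. Of 22 listed, 6 were tested, 0 were called over all arrays (limma, beside 0% of all; 2 higher and 1 lower at an unadjusted p under 0.05) and 3 were called higher without wild-type replicate 1, beside 4.61% of all. AT1G43910 read 329, 299 and 156 in pho3, against 225, 54.6 and 37.3 in wild type, and in that fit it rose 5.51-fold (limma adjusted p = 0.0184). AT2G46620 and AT5G17760, the second named because it was called, rose 2.14-fold and at least 3.03-fold (limma adjusted p = 0.0469 and 0.0313). AT3G28540, a close neighbour of AT3G28510, read 80.8, 99.5 and 42.5 in pho3, against 50.2, 30.3 and 14.1 in wild type, and was not called in either fit. AT2G18190 went the other way, at 26.8, 18.3 and 20.3 in pho3, against 31.9, 37.3 and 30.2 in wild type. Its groups did not overlap, as for 5.81% of probe sets in that direction, but all pho3 arrays were dim and it was not called.

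The berberine bridge-like family held 9 tested genes of 26 listed, and the pho3 mean was the higher for 8 of the 9 (median log2 difference 0.76). None was called over all arrays (limma, beside 0% of all; 0 at an unadjusted p under 0.05), and 2 were called higher without wild-type replicate 1, AT5G44380 and AT1G26390 (limma adjusted p = 0.0233 and 0.0359), beside 4.61% of all probe sets. The second was named because it was called. Wild-type replicates 2 and 3 were dim for both, and in that fit the folds were at least 1.28 and at least 2.09. AT5G44380 read 33.5, 39.0 and 32.9 in pho3, against 40.4, 7.43 and 4.58 in wild type. AT1G26390 belongs to the same tandem array as AT1G26420 and read 50.5, 71.3 and 51.2 in pho3, against 104, 11.4 and 22.3 in wild type. It thus peaked on wild-type replicate 1. AT1G26380, also called FOX1, read 24.5, 26.7 and 31.8 in pho3, against 32.5, 1.90 and 6.66 in wild type. AT1G26400 and AT1G26410, of the same array, were dim on all 6 arrays. AT4G20830 and AT2G34810 had log2 differences of 0.70 and 1.39 and were not called.

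Peptide genes related to PDF1.2 and THI2.1 also differed among themselves. The defensin PDF1.2b, whose probe set is marked by its name as one that can bind near-identical transcripts, read 198, 116 and 253 in pho3, against 167, 197 and 528 in wild type. Like PDF1.2, it was lowest on pho3 replicate 2 and highest on wild-type replicate 3, so the probe sets cannot be taken as separate evidence. The thionin-like gene AT1G66100 instead read 135, 169 and 167 in pho3, against 276, 11.1 and 13.6 in wild type. Its highest signal was on wild-type replicate 1, as for THI2.1, and wild-type replicates 2 and 3 were far below the other 4 arrays, as for the salicylate-type genes. Its log2 difference was 2.17 (SE 1.15, limma adjusted p = 0.376), and without wild-type replicate 1 it rose at least 5.72-fold (limma adjusted p = 0.00126). The defensins LCR68 (PDF2.3) and LCR69 (PDF2.2) differed by 0.68 and 0.35, and neither was called. THI2.2 was dim on all arrays.

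The remaining families gave little. The 3 NHL relatives of AT1G65690 with a probe set of their own, NHL4, NHL5 and NHL13, had signals of 2.02 to 12.0 and were dim on all arrays. Of the lectin-like relatives of AT5G03350 only AT3G16530 was tested, at 451, 199 and 653 in pho3, against 413, 674 and 436 in wild type. It was lowest on pho3 replicate 2, as PDF1.2 was. BIK1, a kinase that relays signals of surface immune receptors, was the only tested gene of the list on microbial patterns, at 105, 114 and 101 in pho3, against 109, 82.6 and 86.3 in wild type. Its log2 difference was 0.21 (SE 0.15) and it was not called.

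**Figure D4:**
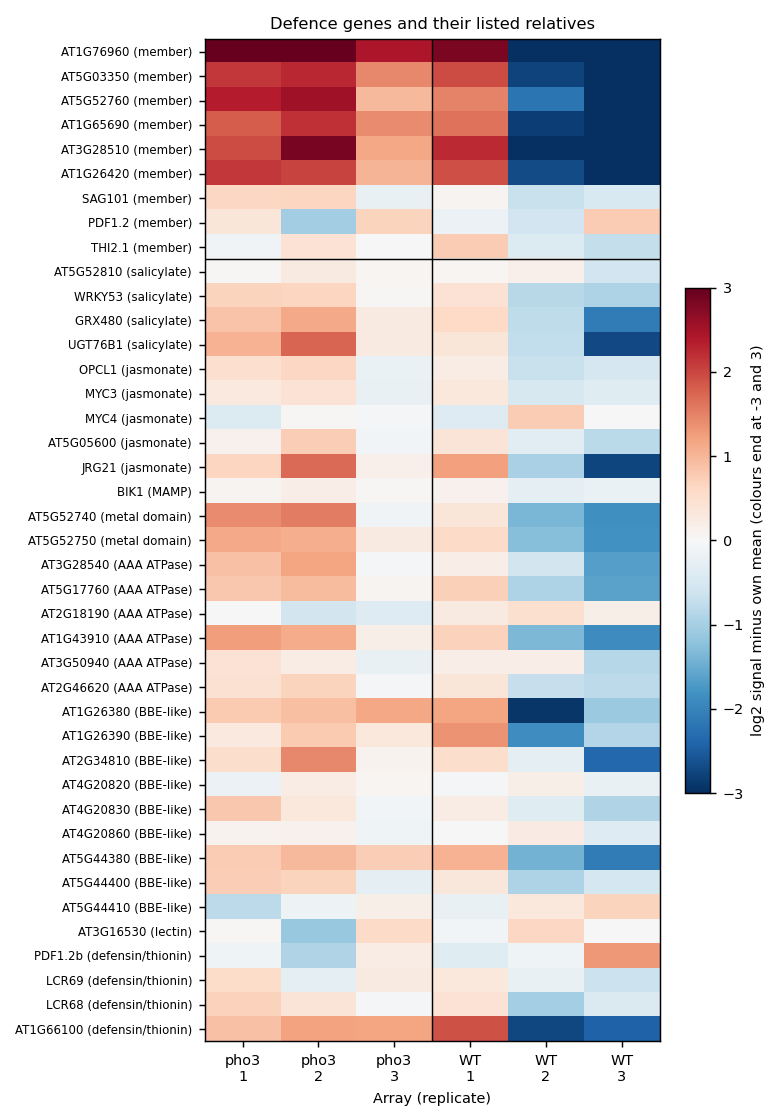
Log2 signal relative to each gene's own mean (colour, ending at -3 and 3) for the 9 genes (above the line, marked member) and the 32 tested genes of the pathway and family lists, by array, with pho3 left of the vertical line. In most rows the other 4 arrays all lie above wild-type replicates 2 and 3, and PDF1.2, PDF1.2b, MYC4 and AT3G16530 are among the exceptions. The 4 arrays are not all red in each such row, as for SAG101 at -0.22 on pho3 replicate 3.

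Over the 8 lists with a tested gene, 22 of 32 genes had the 3 pho3 arrays and wild-type replicate 1 all above wild-type replicates 2 and 3, beside 24.5% of all probe sets, and the pho3 mean was the higher for 27 of 32, at a median log2 difference of 0.72. The lists were written with these results known and the members were chosen on these arrays, so nothing is read from the share.

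Genes with a profile near the salicylate-type mean were listed as a description. Likeness was measured as the root-mean-square gap, in log2 units over the 6 arrays, to the mean profile of the 7 genes, among 1205 single-gene probe sets with an SD of at least 0.5. Of the members, AT1G65690 lay at 0.22 and AT1G26420 at 0.30, while AT1G76960 and SAG101 lay at 1.70 and 2.18. The jasmonate-type THI2.1 lay about as far from that mean profile as SAG101, and PDF1.2 lay farther. This gap therefore does not separate SAG101 from THI2.1. The 8 other genes with the smallest gaps were AT4G12580 at 0.26, the drought-induced DI21 at 0.30, the chalcone isomerase-like CHIL at 0.35, AT4G02360 at 0.37 and the glucanase-like AT4G16260 at 0.38. AT3G12910 and AT2G44240 both lay at 0.40, and DFR, dihydroflavonol reductase of anthocyanin synthesis, at 0.41.

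AT4G16260 read 308, 245 and 125 in pho3, against 216, 12.2 and 3.55 in wild type. DFR read 736, 1155 and 586 in pho3, against 799, 34.2 and 27.6 in wild type. For 7 of these 8 genes wild-type replicates 2 and 3 were both dim, so their order by gap cannot be read. DFR was the exception, with no dim array.

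PDF1.2 and THI2.1 had other near genes. Among 892 probe sets of comparable SD, the nearest to PDF1.2 were AT5G57760 at a gap of 0.25, AT5G50450 at 0.37, and AT2G26940 and PDF1.2b at 0.39. AT5G57760 read 54.5, 29.0 and 75.2 in pho3, against 42.7, 22.8 and 77.7 in wild type. Among 1593 probe sets, those nearest to THI2.1 were AT3G02840 at 0.14, XTH29 at 0.17, AT3G01800 at 0.18 and the thaumatin-like AT4G36010 at 0.20. AT4G36010, with no dim array, read 126, 124 and 96.0 in pho3, against 182, 72.7 and 72.3 in wild type. The other 3 genes near THI2.1, and the 3 near PDF1.2 other than PDF1.2b, had at least 1 dim array.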

How the data were processed

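Total RNA from rosette leaves was hybridised to 6 Affymetrix arrays. Per the submitters' processing notes the deposited signal intensities were made with MAS5 (no version named), and the deposited intensity values have a trimmed mean (2% at each end) of 100.0 on every array. Arrays were grouped and numbered by their titles. From there, log2 signals were used, with nothing added. Of 22746 gene probe sets, 13983 reached the 40th percentile of the array on 3 or more arrays. These entered limma 3.58.1 (R 4.3.3; lmFit, then eBayes with trend), and its two-sided p-values were adjusted by Benjamini-Hochberg across the 13983. Figures used python 3.11.15 and matplotlib 3.10.9. The limma fit was tested on simulated data with equal noise on every array. A fold given as at least a value sets dim wild-type arrays to their 40th percentile and leaves pho3 arrays as measured. Other folds are ratios of geometric means.

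Gene names came from the platform annotation, updated to RefSeq (TAIR10.1, 13436 of 13513 single-gene probe sets matched). Coordinates are not given, because the sources used here name no build for the probes, and promoter or protein sequences were not used here. The members and lists were chosen with earlier results of these data known. Named were all 9 members, up to 4 genes per list with the smallest p, and the 8, 4 and 4 genes nearest in profile to the salicylate-type mean, PDF1.2 and THI2.1. The lists cover salicylate, jasmonate, response to microbial patterns, NHL, lectin-like, heavy metal-domain, BCS1-like, berberine bridge-like, defensin and thionin genes, and leaf, root and guard cell markers. Alternatives tried were a pseudocount of 16, raised dim values, quantile normalization, median centring, other filters, no trend, weighted arrays, a replicate block, and fits with arrays left out.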

Additional observations from a re-analysis of the deposited data

How the results depend on the processing

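Calls depended on which arrays were used. The count of probe sets called was 0 higher and 0 lower in the fit to all arrays, and also with quantile normalization, median centring, a pseudocount of 16, raised dim values, other filters, no trend and the replicate block. Array weights gave 2237 higher and 2026 lower, with 3 salicylate and 3 jasmonate list genes called. Dropping pho3 replicate 3 together with wild-type replicate 1 gave 2547 higher and 2305 lower, with 3 salicylate and 4 jasmonate list genes called, a SAG101 difference of 1.2 and a contrast of 5.63. Leaving out 1 array in turn gave 0 to 644 higher and 0 to 117 lower, with 0 to 2 salicylate and 0 to 0 jasmonate list genes called. The values above 0 came only without wild-type replicate 1.

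With 1 array left out, SAG101 differed by 0.54 to 0.99. With dim values raised, AT3G28510 differed by 1.17 and AT1G26420 by 0.39. The contrast was 2.16 with a pseudocount of 16 and ranged from 2.41 to 5.16 with 1 array left out. Over 12 settings the 7 salicylate-type genes kept a higher mean in pho3. All of them but SAG101 were chosen for their rise in pho3 on these same arrays, and SAG101 with its values known. Their constant sign was thus favoured by the choice, and nothing is read from it. PDF1.2 ran from -0.44 to 0.50 and THI2.1 from -0.08 to 0.73. Arrays with the same replicate number had deviations correlated at 0.39, -0.27 and 0.43, and those with unlike numbers at -0.62 to 0.52. With so few arrays, whether the numbers pair them cannot be told. The replicate block left the contrast at 3.55 and called 0 probe sets. At an unadjusted limma p under 0.05 it gave 1639 higher and 1401 lower, against 807 and 678 without the block.

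The 6 arrays limit precision, and signals under the 40th percentile limit all members but SAG101 and PDF1.2.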

Other observations

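Genes beside the members in the RefSeq gene order were listed after the data had been seen. Of 24 neighbours within 2 protein-coding genes that had a probe set of their own, 13 passed the filter, and 7 of these had the pho3 arrays and wild-type replicate 1 all above wild-type replicates 2 and 3, beside 24.5% of all probe sets. Besides AT5G52740 and AT5G52750 they were AT1G76970, AT5G03345, AT5G14940, AT5G44400 and AT1G72240. AT5G44400 lies beside PDF1.2, which itself lacked that pattern. AT1G76970, near AT1G76960, read 115, 119 and 52.7 in pho3, against 68.3, 25.9 and 10.5 in wild type. AT1G72240, near THI2.1, read 84.1, 85.6 and 36.2 in pho3, against 77.4, 33.8 and 13.3 in wild type, unlike THI2.1 in its order within pho3. AT5G52780, beside the heavy metal-domain genes, ran the other way, at 136, 172 and 328 in pho3, against 227, 394 and 434 in wild type.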
